A study of Homo sapiens with 63 samples.

Results

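The mRNAs described here encode subunits of respiratory complexes II, III, IV and V. They were the rows of the deposited table whose symbol was SDHA to SDHD or CYC1 or began with UQCR, COX4 to COX8 or ATP5, without ATP5S and ATP5SL. The rule used names and no measured value, and it found 40 of 11074 genes: 4 of complex II, 9 of complex III, 11 of complex IV and 16 of complex V. All 40 passed the filter on low values that left 10889 tested genes. One of the 16, ATP5J2-PTCD1, is a readthrough of ATP5J2 and a neighbour, shares sequence with ATP5J2 and had the lowest signal of all members. The tissue forms of complex IV subunits, COX4I2 (lung), COX6A2 and COX7A1 (heart and muscle) and COX6B2 and COX8C (testis), are not listed in the table.

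HEK293, a human embryonic kidney cell line, was used in every sample. Log phase cells were grown in DMEM with serum, serum starved cells were held 2 h without it, and amino acid starved cells were held 1 h in EBSS, a salt solution, with vitamins and serum. All cells, controls included, received cycloheximide, which halts elongating ribosomes on mRNA, before lysis with a mild detergent. Each lysate was spread on a polysome gradient, and poly(A) RNA of fractions 3 to 22 was sequenced, which gave 60 libraries in 3 gradients of 20 fractions. With a single gradient for each condition, the differences below cannot be set against replicate error, and none carries a p-value. The starvations also differ in duration and medium, which cannot be told apart from the nutrient withheld. Of 7 genes listed as HEK293 markers, 5 were in the table (VIM, KRT8, KRT18, NEFM and NEFL), and PAX2 and LHX1 were not. None of 5 markers of blood, liver, fibroblast and muscle cells was listed.

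The respiratory chain passes electrons from nutrients to oxygen in the inner mitochondrial membrane. Complex II (succinate dehydrogenase) also belongs to the citric acid cycle, complex III hands electrons from ubiquinol to cytochrome c, complex IV reduces oxygen, and complex V (ATP synthase) makes ATP from the proton gradient. All subunits of complex II and most of the others are encoded in the nucleus and made on cytosolic ribosomes, so their mRNAs can be followed on a polysome gradient. Some mRNAs begin with a C followed by an unbroken run of pyrimidines, the terminal oligopyrimidine or TOP motif. Translation of such mRNAs, which include those of the cytosolic ribosomal proteins, is known to fall when nutrients or growth factors are withdrawn.

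The first bases of the members are shown because the position of several mRNAs moved with starvation. RefSeq starts on GRCh38.p14 were found for 31 of the 40 members. At 8 of these 31 genes (25.8%) a start was a C followed by at least 4 more pyrimidines, read on the gene's own strand. The same letters stood at a start of 7.75% of the 9023 tested genes with an entry, at 72.3% of 65 cytosolic ribosomal protein genes and at 4.07% of all 35116 starts in the table. The 30 bases around these starts, 15 before and 15 from the start, are printed 5′ to 3′ with the pyrimidine run in capitals. UQCRC2 and ATP5A1, which have no such start, are added because their mRNAs were among those that moved most; capitals there mark the C and any pyrimidines that follow it.
UQCRH (chr1:46303683-46303712, plus strand): tgacccttacaagtcCTTCTTgatcctgaa
COX4I1 (chr16:85799680-85799709, plus strand): cggcgcggccttgctCTCTTCCggtcgcgg
COX7A2L (chr2:42361203-42361232, minus strand): ccggggaggcggggtCCTTCTCTggggcgg
COX7C (chr5:86617926-86617955, plus strand): ccatttcccatctttCTTTTCagtccttgc
ATP5E (chr20:59032321-59032350, minus strand): cttctgtggtctgatCTTCCTgcggctgaa
ATP5G2 (chr12:53676069-53676098, minus strand): cttcccgctgctccgCCCCTCTCTgtcttc
ATP5L (chr11:118401591-118401620, plus strand): ggtcctgcagcgggtCCTTCCggcgggtga
ATP5O (chr21:33915790-33915819, minus strand): cccttgcgcgtttctCTCTTCCCactcggg
UQCRC2 (chr16:21953346-21953375, plus strand): tgggaaactcccggcCTCCgccaccatctt
ATP5A1, first start (chr18:46104213-46104242, minus strand): gtcgaaggctctggcattgcaagcctcgct
ATP5A1, second start (chr18:46098282-46098311, minus strand): tctttgcggctcggcCattttgtcccagtc
The run at UQCRC2 has 4 letters and so misses the rule by 1. COX7A2L has another annotated start, which begins with G, and ATP5G2 has others, which begin with G and T. None of these begins with a C, so none meets the rule, although the ATP5G2 start with T opens a run of pyrimidines. They are not printed. A match says only that these letters stand at the annotated start, and the starts used by these cells were not measured.

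Values are called signal, because each fraction carries a further scale that no source used here explains. Fraction totals ran from 36830 in fraction 6 to 6.7e+07 in fraction 18 of the log phase gradient, and both starved gradients had their highest total in fraction 9, at 2.67e+07 (serum starved) and 2.99e+07 (amino acid starved). The 40 members held 1.91% of the summed signal of the log phase gradient and 1.74% of that of either starved gradient. Their share was lowest in fraction 7 of every gradient, at 0.616%, 0.585% and 0.636%. It was highest in fraction 15 in log phase (2.53%) and without serum (3.04%), and in fraction 17 without amino acids (2.83%). In log phase complex V held 0.683% of the total, complex IV 0.641%, complex III 0.541% and complex II 0.0449%.

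The level of an mRNA was its signal summed over fractions 3 to 22, per 1000000 of the gradient's total, and TPM values are already per transcript length. In log phase UQCRB, a small subunit of complex III that binds ubiquinone, had the highest level of any member, 2360. COX7C (1785) led complex IV, ATP5G2 (1259) led complex V and SDHB (229) led complex II. Within complex III the highest level was 21.1 times the lowest, that of the core subunit UQCRC2 (112). Within complex IV this ratio was 8.65, against COX7A2L (206), and within complex II it was 4.02, against SDHA (56.9). Many members have named pseudogenes in the gene table, among them 18 for COX6C, 8 for ATP5G1 and 7 for ATP5A1, and whether reads were shared between such copies was not tested, so these values are uncertain.

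**Figure D1:**
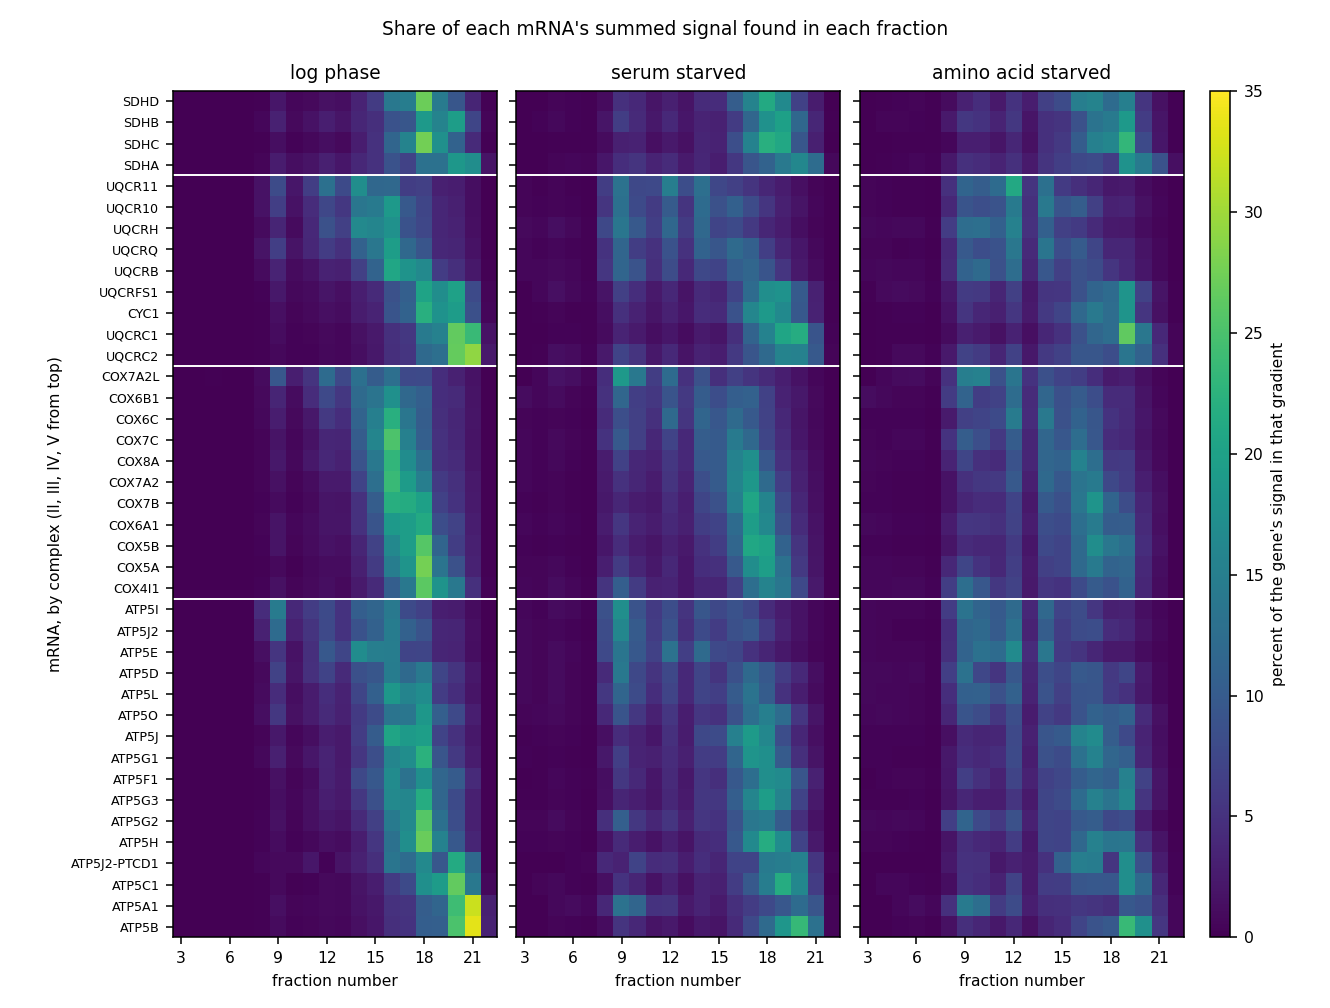
Share of each mRNA's summed signal (colour, percent) in fractions 3 to 22 (x axis) of the 3 gradients, for the 40 members ordered within complexes II, III, IV and V by log phase position. ATP5B and ATP5A1 peak in fraction 21 in log phase; in the amino acid starved gradient ATP5B peaks in fraction 19 and ATP5A1 in fraction 9.

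The position of an mRNA was the mean of the fraction numbers, each weighted by the signal there. In log phase the median position of the members was 16.68, against 16.94 for all tested genes, and 23 of the 40 lay below the median gene. The members spread from 13.72 (ATP5I, a small membrane subunit of complex V) to 19.22 (ATP5B, the catalytic beta subunit), while the middle 50% of all genes lay between 16.08 and 17.67. With every fraction brought to an equal total the medians were 14.10 and 14.22, and 20 members lay below that of all genes. Signal peaked in fractions 18 to 22 for 22 members, in fractions 13 to 17 for 17 and in fraction 9 for ATP5I. Of the 10889 tested genes 6551 peaked in fractions 18 to 22, 4075 in fractions 13 to 17 and 253 in fractions 8 to 12.

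Complex II mRNAs lay close together. SDHD (a membrane anchor) stood at 17.22, SDHB (the iron-sulfur subunit) at 17.38, SDHC (the other anchor) at 17.55 and SDHA (the flavin subunit) at 17.69. All 4 were above the median gene and peaked between fractions 18 and 20. Their odd-numbered and even-numbered fractions, which were also read apart as a measure of spread within a gradient, differed by more than some of these steps: SDHB gave 17.13 and 17.58. SDHB, SDHC (17.52 and 17.57) and SDHA (17.85 and 17.54) lay above SDHD (17.09 and 17.31) in odd and in even fractions. The order of SDHB against SDHC, and of SDHC against SDHA, differed between odd and even fractions. With equal fraction totals SDHB (14.71) lay below SDHD (15.21).

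Complex III mRNAs of the large and of the small subunits lay in separate ranges. The 4 large subunits lay between 17.72 and 19.15: UQCRFS1 (the Rieske iron-sulfur protein) at 17.72, CYC1 (cytochrome c1) at 17.94, UQCRC1 at 18.91 and UQCRC2 at 19.15, the last pair forming the matrix-side core. The 5 small subunits UQCR11, UQCR10, UQCRH, UQCRQ and UQCRB lay between 14.10 and 16.04. These ranges did not overlap. In fractions 18 to 22 UQCRC2 had 83.2% of its signal and UQCR11 13.9%.

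Complex IV mRNAs ran from COX7A2L (14.30), which is known for joining complexes III and IV, to COX4I1 (17.64), the largest nuclear-encoded subunit. The paralog COX7A2 stood at 16.30, 2.00 fractions above COX7A2L. COX6B1, COX8A and COX6A1, the only listed members of their paralog sets, stood at 15.25, 15.93 and 16.69. Of the 11 mRNAs 8 lay below the median gene, and 7 peaked in fractions 13 to 17.

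Complex V mRNAs had the widest range. The alpha, beta and gamma subunits of the catalytic head lay highest, ATP5A1 (alpha) at 19.06, ATP5B (beta) at 19.22 and ATP5C1 (gamma) at 18.57. The other subunits of that head, ATP5D (delta) and ATP5E (epsilon), lay at 15.35 and 14.59. The genes ATP5G1, ATP5G2 and ATP5G3 encode the same mature subunit c of the membrane ring behind different import sequences, and their mRNAs stood at 16.43, 17.03 and 16.82. The lowest were ATP5I (13.72) and ATP5J2 (14.28), both small membrane subunits.

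**Figure D2:**
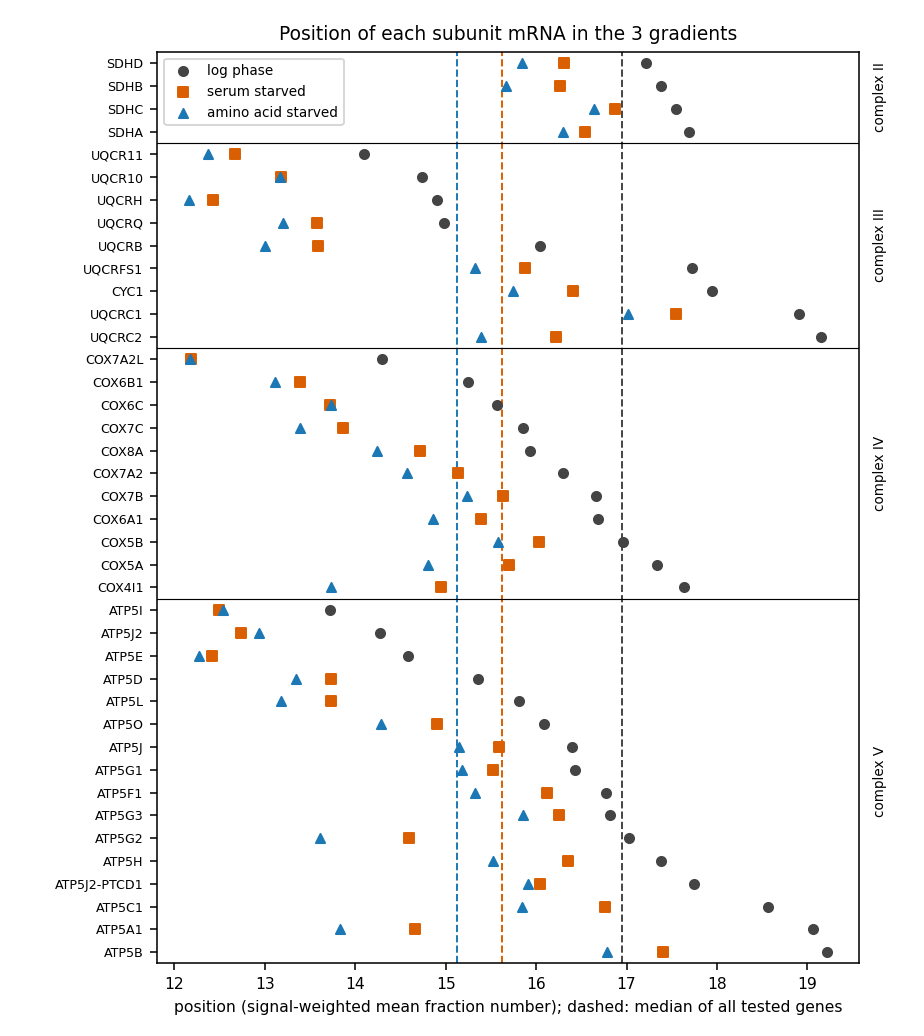
Position (signal-weighted mean fraction number, x axis) of each of the 40 mRNAs in the log phase (circles), serum starved (squares) and amino acid starved (triangles) gradients, with the median of all 10889 tested genes in each gradient as a dashed line. Every member lies further left in both starved gradients than in log phase, as do 98.1% and 99.2% of all genes. With equal fraction totals 11 members do so in each starved gradient, where 5.46% (serum) and 6.12% (amino acids) of all genes do. ATP5A1 moves further than its partner ATP5B.

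Whether low or high fraction numbers are the heavy end of the gradient is not stated in the labels, and no shift is therefore read as more or less translation. Nearly every mRNA lay at a lower-numbered position after starvation on the deposited scale. All 40 members did so in both starved gradients, as did 98.1% of all tested genes without serum and 99.2% without amino acids. The median member moved by -1.54 fractions without serum and -1.84 without amino acids, and the median gene by -1.35 and -1.80. This common movement depends on the scale of the fractions: for all genes it was 1.54 and 1.72 with equal fraction totals and -0.51 and -0.88 on the spike-in scale. A shift is therefore given below as the change in position minus the median change of all tested genes. A shift of 1 fraction or more, with 0.5 or more of equal sign in odd and in even fractions taken apart, met the size rule; this rule is no test. Both starved gradients were compared with the same log phase gradient, so their values are not independent of each other.

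Without serum 6 of the 40 members met the rule towards lower-numbered fractions, where 9.86% of all tested genes did, and none towards higher-numbered fractions, where 5.7% did. The members' count is near that background. The median shift of the 40 was -0.19, with -0.22 in odd and -0.07 in even fractions, and -0.90 with equal fraction totals. Without amino acids 5 members met the rule towards lower numbers, against 9.57% of all genes, and none towards higher numbers, against 6.84%. The median was -0.04, and -0.72 with equal fraction totals. These counts turn on the scale: with equal fraction totals 17 members without serum and 16 without amino acids met the rule downward (backgrounds 13.1% and 16%), and 1 each, SDHA, upward (12.1% and 13%). On the spike-in scale 5 and 7 met it downward (7.97% and 10%), and 0 and 2 (ATP5I and ATP5J2) upward (4.82% and 8.45%).

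**Figure D3:**
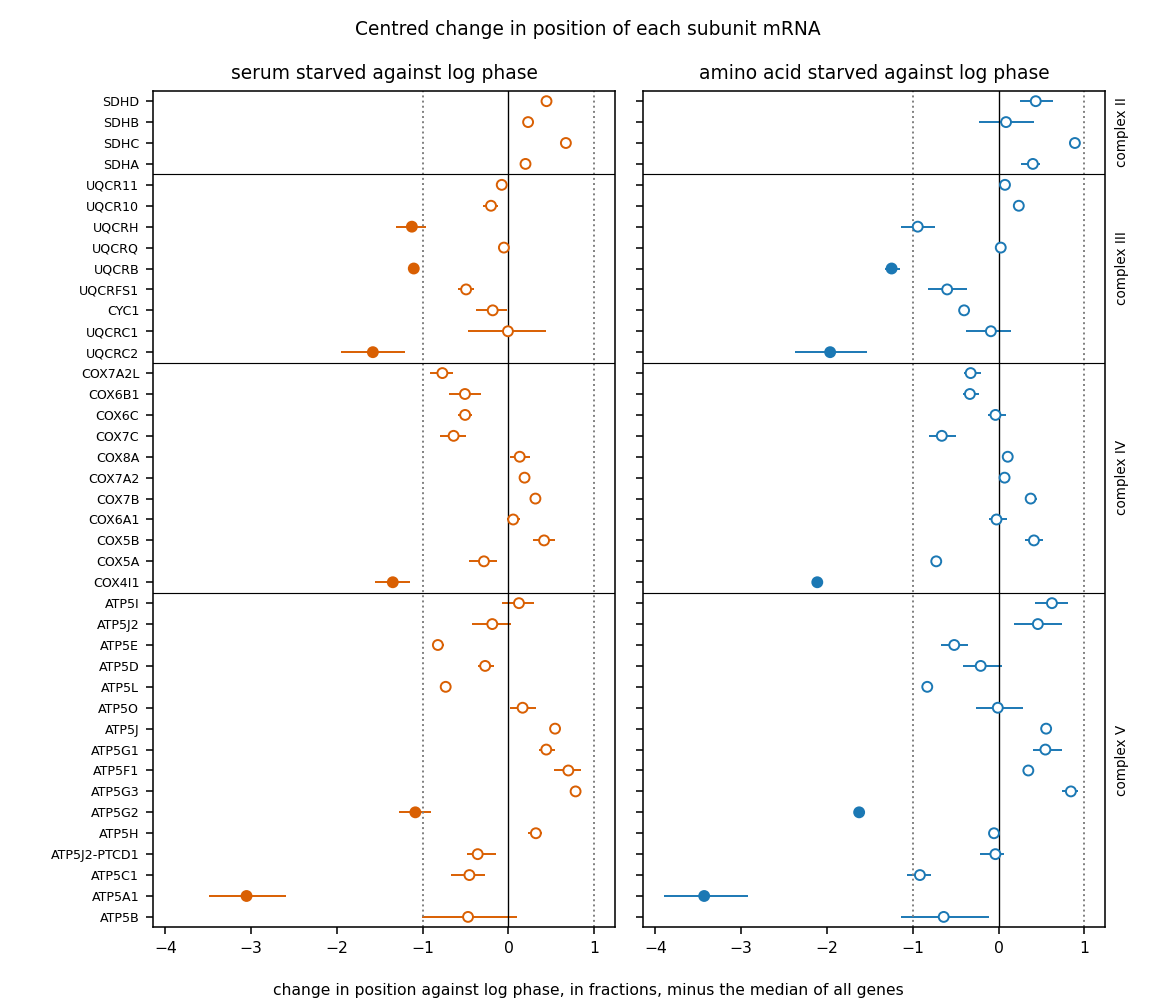
Shift of each mRNA (change in position against log phase in fractions, minus the median of all genes, x axis) without serum (left) and without amino acids (right); horizontal bars join the values from odd and even fractions, dotted lines mark the size rule of 1 fraction and filled points met it. ATP5A1 stands furthest left in both panels, at -3.05 and -3.43, and the 4 complex II mRNAs lie to the right of 0 on this scale (SDHC and SDHD lie below 0 with equal fraction totals).

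ATP5A1 encodes the alpha subunit of the catalytic head. Its log phase signal over the 20 fractions ran from 4.41 through a median of 1289 to 34483 in fraction 21. Without serum it ran from 7.16 through 2748 to 8442 in fraction 9, and without amino acids from 8.27 through 3066 to 9225 in fraction 9. Its peak in both starved gradients thus lay in the fraction with the highest total. Fractions 18 to 22 held 81.2% of its signal in log phase, 39.2% after serum starvation and 28.5% after amino acid starvation, while fractions 8 to 12 held 3.70%, 39.0% and 45.7%. The median of all tested genes in fractions 8 to 12 was 7.17%, 22.5% and 23.1%. The shift was -3.05 without serum (odd fractions -3.49, even -2.59) and -3.43 without amino acids (-3.90 and -2.92). Of 10889 tested genes 88 had a lower shift without serum and 57 without amino acids. Leaving out any single fraction gave -3.44 to -2.55 and -3.76 to -2.90.

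ATP5B, whose product alternates with that of ATP5A1 around the same head, had a log phase profile close to it. Its signal in log phase ran from 7.76 through a median of 1648 to 60028 in fraction 21. Without serum it ran from 17.6 through 2090 to 24375 in fraction 20, and without amino acids from 24.9 through 3777 to 24171 in fraction 19. The peak of ATP5B stayed among the high-numbered fractions in all 3 gradients. ATP5A1 minus ATP5B in position was -0.16 in log phase, and it was -2.74 and -2.95 after serum and amino acid starvation. With equal fraction totals it was -0.37, -2.35 and -1.91, and on the spike-in scale -0.17, -2.17 and -2.14. The shift of ATP5B was -0.47 without serum, where odd and even fractions disagreed in sign, and -0.64 without amino acids, and neither met the rule on the deposited scale. ATP5B did meet it with equal fraction totals, at -2.04 and -2.49, and on the spike-in scale without amino acids, at -1.02. ATP5C1, the shaft between head and ring, had shifts of -0.46 and -0.92, outside the rule. It met the rule with equal fraction totals, at -1.98 and -2.19, and on the spike-in scale without amino acids, at -1.21.

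**Figure D4:**
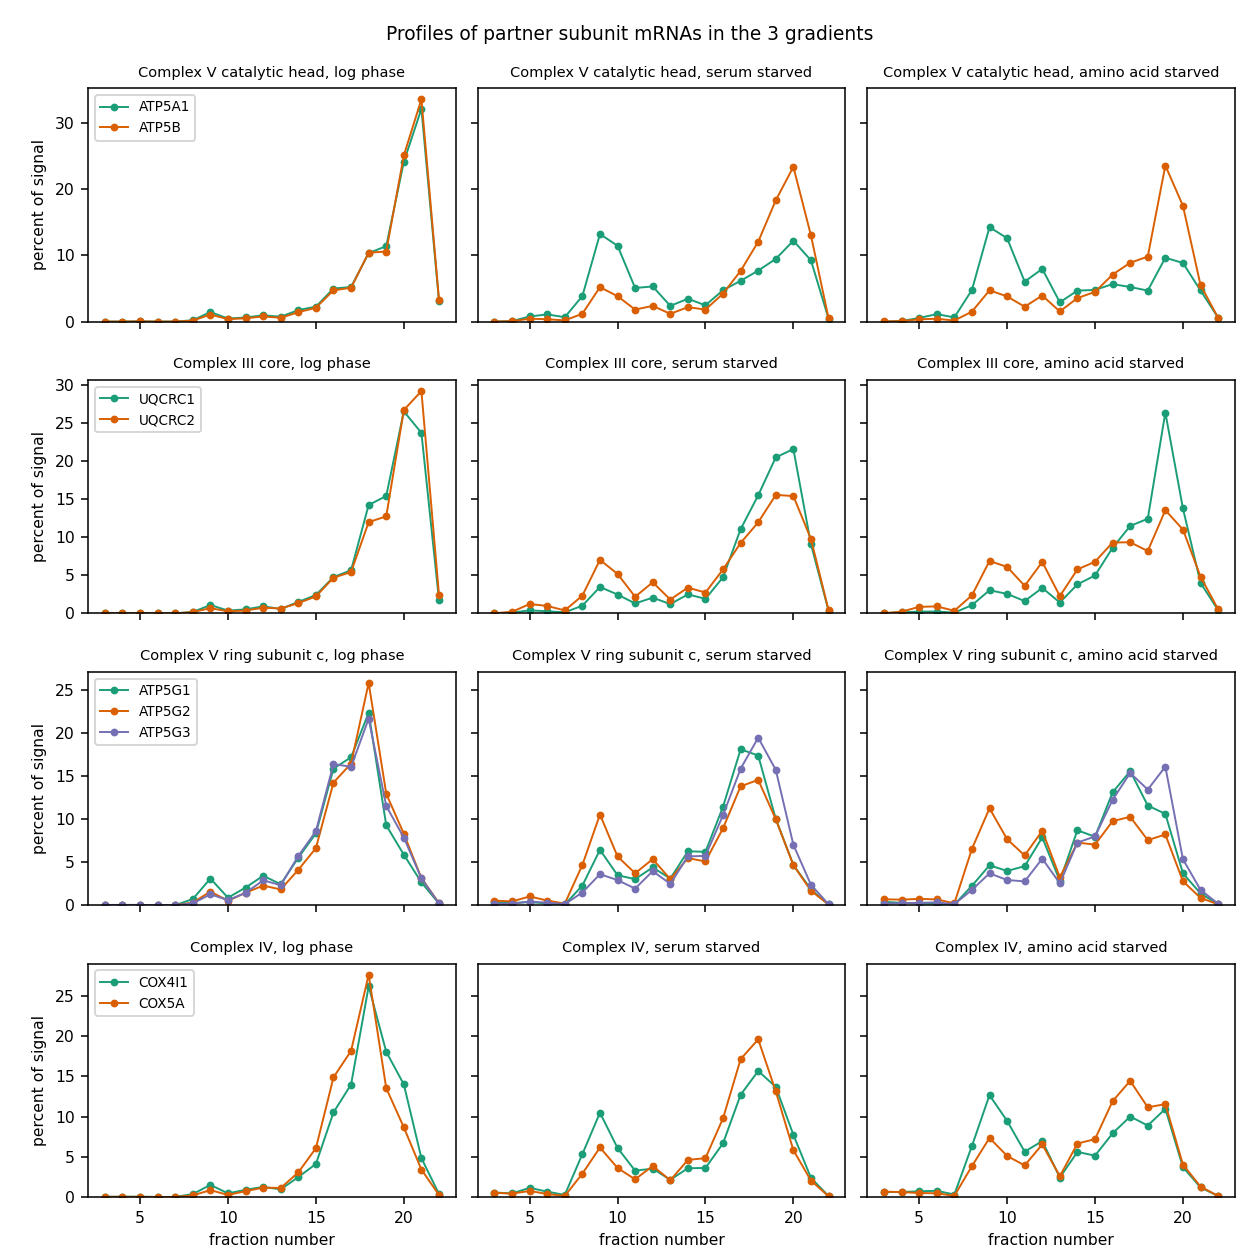
Percent of each mRNA's signal (y axis) in fractions 3 to 22 (x axis) for partner or paralog subunits, 1 row of panels per set and 1 column per gradient. In each row the lines run close together in log phase; in the starved gradients ATP5A1, UQCRC2, ATP5G2 and COX4I1 have a further peak in fractions 9 and 10 that is higher than that of their partners.

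The 3 genes for subunit c also parted. In log phase ATP5G2 ranged from 10.8 through a median of 8398 to 127027 in fraction 18. Without serum its range was 151 through 8870 to 27669 in fraction 18, and without amino acids 192 through 11985 to 21896 in fraction 9. Its share in fractions 8 to 12 was 6.13% in log phase, 29.95% after serum starvation and 39.9% after amino acid starvation. The same share of ATP5G3 was 6.39%, 13.9% and 16.6%, and that of ATP5G1 10.1%, 19.6% and 23.3%. The shifts of ATP5G2 were -1.09 and -1.63, which met the rule, while those of ATP5G1 were 0.44 and 0.54. ATP5G3 had 0.78 and 0.84, which turned to -0.26 and -0.09 with equal fraction totals. ATP5G2 minus ATP5G3 was 0.21 fractions in log phase, -1.65 after serum starvation and -2.25 after amino acid starvation, and with equal fraction totals it was 0.0043, -1.98 and -2.78. On the deposited scale ATP5G3 had the highest shift of complex V in both contrasts. The gene table names 5 pseudogenes of ATP5G2 and 8 of ATP5G1.

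UQCRC2, a core subunit of complex III, peaked in fraction 21 of the log phase gradient and in fraction 19 of both starved gradients. Its signal ran from 1.44 through a median of 317 to 12803 in log phase. It ran from 4.73 through 634 to 3223 without serum and from 7.14 through 1203 to 3070 without amino acids. Fractions 8 to 12 held 2.28%, 20.9% and 25.8% of it, against 3.13%, 10.4% and 11.7% of its core partner UQCRC1. The shifts of UQCRC2 were -1.58 and -1.96, both past the rule, and with equal fraction totals they were -2.91 and -3.15. UQCRC1 had -0.0063, with odd and even fractions at -0.47 and 0.43, and -0.09. With equal fraction totals UQCRC1 met the rule too, at -1.56 and -1.93. UQCRC2 minus UQCRC1 was 0.24 fractions in log phase, -1.33 after serum starvation and -1.63 after amino acid starvation, and 0.09, -1.26 and -1.13 with equal fraction totals.

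Of the small complex III subunits, UQCRB and UQCRH moved most. UQCRB ranged from 29.4 through 24408 to 190974 in log phase, with the peak in fraction 16. It ranged from 138 through 16904 to 38808 without serum (fraction 17) and from 243 through 17189 to 51950.2 without amino acids (fraction 12). Its shifts were -1.10 and -1.25, and the second was -0.94 and outside the rule on the spike-in scale. UQCRH, the hinge protein at cytochrome c1, had -1.13 without serum, inside the rule, and -0.94 without amino acids, just outside it. UQCRH fell out of the rule without serum on the spike-in scale too, at -0.99. UQCRQ, UQCR10 and UQCR11 had shifts between -0.20 and 0.24 in the 2 contrasts, and UQCR10 had the highest of complex III without amino acids, 0.24, which was -0.18 with equal fraction totals. All 9 mRNAs of complex III had a shift below 0 without serum and 6 of 9 without amino acids, with medians of -0.20 and -0.40. On the spike-in scale 6 of 9 were below 0 in each contrast, with UQCR11, UQCR10 and UQCRQ at 0.20, 0.13 and 0.29 without serum, and with equal fraction totals all 9 were in each.

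On the deposited scale COX4I1 was the only complex IV member past the rule in either contrast, and with equal fraction totals 7 of 11 without serum and 4 of 11 without amino acids were past it. Its signal ran from 6.63 through a median of 2355 to 55987 in fraction 18 in log phase. Without serum it ran from 109 through 3296 to 14548 in fraction 18, and without amino acids from 129 through 5493 to 12951 in fraction 9. Fractions 8 to 12 held 4.47% of it in log phase, 28.7% after serum starvation and 41.0% after amino acid starvation. Its shifts were -1.35 and -2.11, and with equal fraction totals -2.37 and -3.05. COX5A, which binds next to it in the complex and was picked for this comparison after its values were seen, had shifts of -0.29 and -0.73, outside the rule. COX5A met it with equal fraction totals, at -2.16 and -2.51, and on the spike-in scale without amino acids, at -1.03. COX4I1 minus COX5A was 0.31 fractions in log phase, -0.76 after serum starvation and -1.08 after amino acid starvation; with equal fraction totals the first was -0.34, so their order in log phase depends on the scale. COX5B had the highest shifts of complex IV, 0.41 in each contrast, which turned to -0.84 and -0.68 with equal fraction totals. COX7A2L had -0.77 and -0.33. Its paralog COX7A2 had 0.19 and 0.07, and -0.94 and -0.77 with equal fraction totals. COX6A1, COX6B1 and COX8A had 0.05, -0.51 and 0.13 without serum and -0.02, -0.33 and 0.11 without amino acids, and all 3 were below 0 in both contrasts with equal fraction totals. The median of the 11 was -0.29 without serum and -0.04 without amino acids.

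The serum contrast leaned on fraction 9 more than on any other. Without that fraction 3 of the 6 members, ATP5A1, UQCRC2 and UQCRH, still met the rule (8.42% of all genes did), while ATP5G2 came to -0.77, COX4I1 to -0.9985 and UQCRB to -0.98. ATP5G2 without fraction 8 came to -0.95. UQCRH came to between -0.98 and -1.00 when fraction 8, 18, 19 or 20 was left out. Without amino acids all 5 members met the rule whichever fraction was left out.

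No complex II mRNA had a shift below 0 on the deposited scale. SDHD had shifts of 0.44 without serum and 0.43 without amino acids, SDHB 0.23 and 0.09, SDHC 0.67 and 0.89, and SDHA 0.20 and 0.40. None met the rule. The medians were 0.34 and 0.42, and the odd and even values of SDHB without amino acids disagreed in sign. With equal fraction totals the medians were -0.05 and -0.15, SDHA alone met the rule upward, at 1.20 and 1.82, and SDHC was at -0.57 and -0.35. SDHD was at -0.31 and -0.32 on that scale, so the direction of both membrane anchors against the median gene turned with the scale.

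The 2 starved gradients were also set against each other. The median shift of the members, amino acid starved minus serum starved, was 0.00099 fractions. No member met the rule in either direction, where 1.06% of all genes did downward and 2.01% upward. None met it with equal fraction totals (2.94% and 2.49% of all genes) or on the spike-in scale (1.52% and 1.93%). COX4I1 had the lowest shift, -0.75, and ATP5J2 the highest, 0.66. On the deposited scale 37 of 40 members lay lower in the amino acid starved gradient before centring, where 84.3% of all tested genes did. With equal fraction totals 11 members did, where 38.5% of all tested genes did.

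The shifts were then read by the letters at the start. The 8 members with a pyrimidine start had a median shift of -0.80 without serum, with 7 of 8 below 0 and 3 past the rule (COX4I1, ATP5G2 and UQCRH). The other 23 members whose starts were read had a median of 0.12, with 10 of 23 below 0 and 2 past the rule (ATP5A1 and UQCRC2). UQCRB, which met the rule in both contrasts, lies on chromosome 8 and was not among the members read here. Without amino acids the median of the 8 was -0.75, with 8 of 8 below 0 and 2 past the rule. That of the 23 was 0.07, with 9 of 23 below 0 and 2 past the rule. Over all tested genes with an entry the medians were -0.41 for the 699 with such a start and 0.03 for the 8324 without it in the serum contrast, and -0.45 and 0.02 in the other. Of the 699 genes, 489 were below 0 and 206 past the rule downward without serum, and 494 and 206 without amino acids. Of the 8324, these counts were 4007 and 674 without serum and 4031 and 664 without amino acids. Cytosolic ribosomal protein genes did not divide this way. Their medians were -2.84 for the 47 with such a start and -3.23 for the 18 without it in the serum contrast. Without amino acids they were -2.92 and -3.24. With equal fraction totals the members' medians without serum were -1.63 and -0.72, and with weights of log2 signal 0.0085 and 0.09. ATP5O, with an 8-base run, had shifts of 0.16 and -0.0098, so the letters and the shift did not go together in every member. With the run allowed to begin within 4 bases of the start and 5 or more pyrimidines long, 10 of 31 members qualified, against 25.1% of all tested genes. The part of these letters in the shifts was not tested.

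Other genes of mitochondrial energy metabolism, from lists chosen by function, were read in the same way. Of all tested genes 9.86% met the rule downward and 5.7% upward without serum, and 9.57% and 6.84% without amino acids. Of 38 complex I mRNAs, 1 met the rule downward and 1 upward without serum, and 1 and 3 without amino acids, with medians of 0.20 and 0.29 that were -0.47 and -0.24 with equal fraction totals. NDUFA10 had the lowest shifts, -1.67 and -2.05, and NDUFA8 the highest, 1.01 and 1.44. Of 37 assembly factors, which help build the complexes, 0 met it downward and 2 upward without serum, and 1 and 4 without amino acids. SCO2, which delivers copper to complex IV, had the highest shifts, 1.58 and 1.25, and SURF1, also needed for complex IV, the lowest, -0.91 and -1.15, which were 0.85 and 0.50 with equal fraction totals. Of 14 citric acid cycle genes 2 met it downward without serum and 6 without amino acids, with medians of -0.45 and -0.76 that were -0.96 and -1.40 with equal fraction totals. CS (citrate synthase) had the lowest shifts of that list, -3.16 and -3.11; MDH2 (malate dehydrogenase) had the highest without serum, 0.65, and DLD, an enzyme shared with other dehydrogenase complexes, without amino acids, 0.47, and both were below 0 with equal fraction totals. CYCS (cytochrome c), NDUFA4 (a complex IV partner) and the 4 listed complex V genes outside the symbol rule (ATPIF1, USMG5, C14orf2 and ATP5S) had none past the rule.

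Ribosomal protein mRNAs gave a wider range. Their counts stand against the same shares of all tested genes: 9.86% downward and 5.7% upward without serum, and 9.57% and 6.84% without amino acids. Of 78 mitochondrial ribosomal protein mRNAs 5 met the rule downward and 1 upward without serum, and 8 and 4 without amino acids, with medians of 0.17 and 0.02 that were -0.37 and -0.33 with equal fraction totals. Of 81 cytosolic ribosomal protein mRNAs 77 and 75 met it downward, with medians of -3.01 and -3.10. Of the members, ATP5A1 was lowest, and the next were UQCRC2 at -1.58 without serum and COX4I1 at -2.11 without amino acids. Of 7 tested regulators of respiratory genes TFAM, which maintains mitochondrial DNA, was the only one past the rule, at 1.42 and 1.83 (0.33 and 1.01 with equal fraction totals).

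Levels summed over the gradient were compared next. A level ratio was log2 of the level plus 1 in one gradient over that in another, minus the median of all genes, and it met the size rule at 1 or more with at least 0.5 in both odd and even fractions. ATP5J2-PTCD1 was under the minimum level of 5, which left 39 members. Without serum 31 of the 39 were above 0 and none met the rule, which 0.903% of all genes met downward and 3.05% upward. Leaving out fraction 21 put 3 past it upward (ATP5A1, ATP5B and UQCRC1), where 3.26% of all genes were. Leaving out fraction 20 put ATP5A1 past it, where 3.45% of all genes were. Without amino acids 33 were above 0 and none met it, where 2.83% and 4.96% of all genes did. Here leaving out any of fractions 12 to 17, 20 or 21 put 1 to 4 members past it upward, where 4.84% to 5.66% of all genes were. These were COX7A2L for each of fractions 12 to 17, with UQCR11 for 14 and 15 and ATP5E for 15 and 16. ATP5A1 was past it for 20, and ATP5A1, ATP5B, UQCRC1 and UQCRC2 for 21. Amino acid over serum starved, none met it either, with backgrounds of 0.0401% and 0.187%. The medians were 0.30, 0.40 and 0.09. Before centring they were -0.13, -0.19 and -0.08, against -0.43, -0.59 and -0.17 for all genes, so the sign is relative to the median gene. Levels are shares of a gradient's signal, so a change in the number of cells or in total RNA per cell does not show in them.

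**Figure D5:**
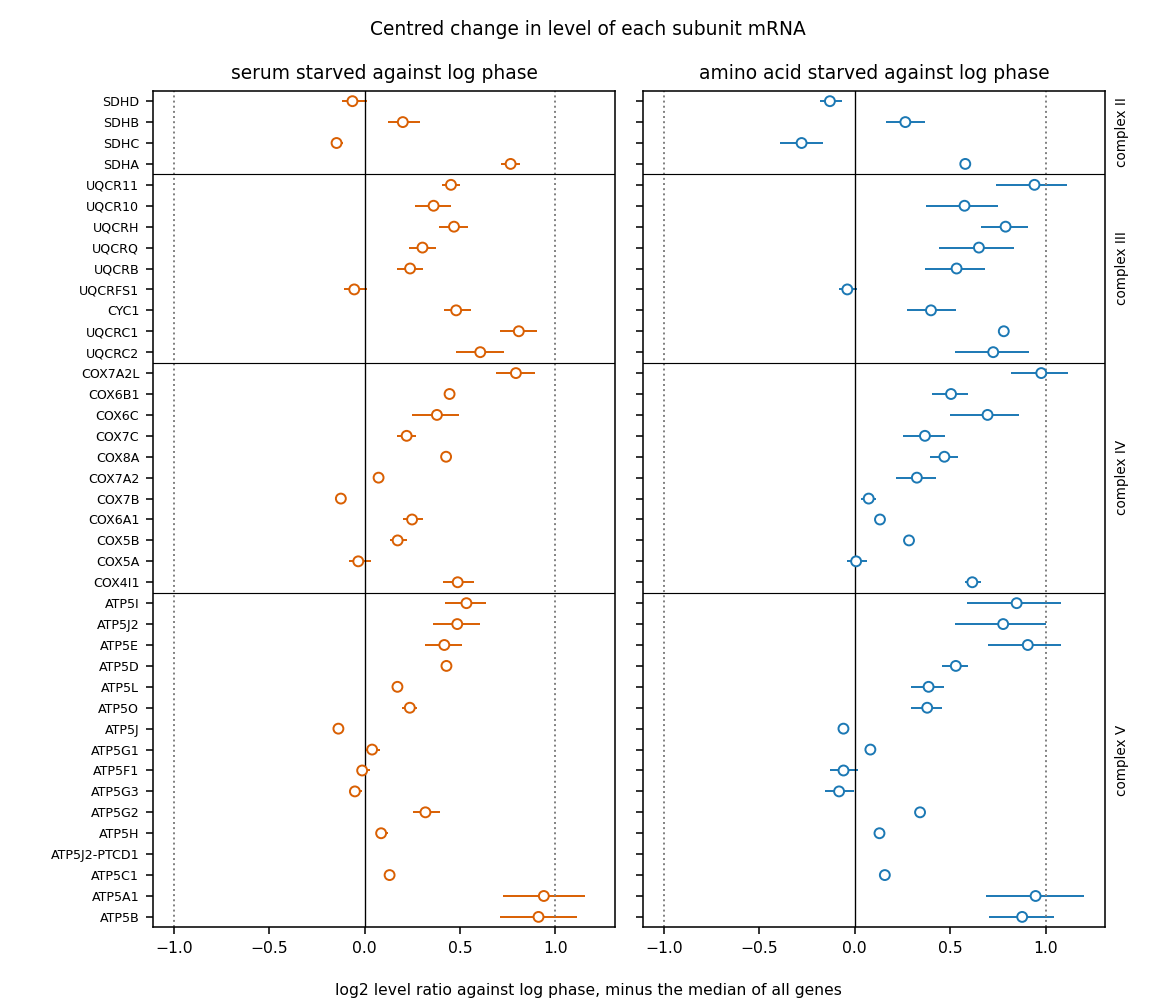
Log2 level ratio of each mRNA against log phase, minus the median of all genes (x axis), without serum (left) and without amino acids (right); bars join odd and even fractions and dotted lines mark the size rule of 1. On this scale all points lie between -0.28 and 0.98, ATP5J2-PTCD1 has no point, and ATP5A1 and ATP5B lie close together.

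ATP5A1 and ATP5B, which moved apart in position, had similar level ratios, 0.94 and 0.91 without serum and 0.95 and 0.88 without amino acids. Their levels were 274 and 457 in log phase, 391 and 638 without serum, and 352 and 559 without amino acids. UQCRC1 and UQCRC2 had 0.81 and 0.60 without serum. On the deposited scale COX7A2L, at 0.79 and 0.98, had the highest ratio without amino acids and SDHC the lowest in both contrasts, -0.15 and -0.28. With equal fraction totals COX7A2L was at 0.11 and 0.09 and SDHC at 0.20 and 0.26, and ATP5I was lowest, at -0.41 and -0.33. In complex II SDHA had 0.76 and 0.58 and SDHD -0.06 and -0.13, with SDHB between them at 0.20 and 0.27. The 3 subunit c genes had 0.32 (ATP5G2), 0.04 (ATP5G1) and -0.05 (ATP5G3) without serum. By complex the medians were 0.07, 0.45, 0.25 and 0.24 for II, III, IV and V without serum and 0.07, 0.65, 0.37 and 0.38 without amino acids. With equal fraction totals they were 0.19, 0.16, 0.34 and 0.11, and 0.29, 0.20, 0.46 and 0.20, so complex II lay below complex III on the first scale and above it on the other. Cytosolic ribosomal proteins had 0.75 and 1.05.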

How the data were processed

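Poly(A) RNA of 60 gradient fractions from HEK293 cells was read from 1 deposited table; the 3 lysates among the 63 labelled samples are not analysed here. The authors deposited 1 signal value per gene symbol and fraction, made with kallisto 0.44.0 and sleuth 0.29.0 on hg38, per the submitters' processing notes. The table is named TPM, but its columns do not sum to 1000000, no source used here explains the authors' scale per fraction or gives library depths, and so no counting error is attached. Spike-in rows (29 with ERCC names and 1 of luciferase) were kept out of genes and totals. A gene was tested where its mean signal reached 5 in every gradient, with 15 or more fractions above 0.

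Members were matched to the RefSeq gene table of GRCh38.p14 (40 of 40, 16 by an older symbol). Positions, shifts and level ratios were computed with Python 3.11.15, pandas 2.3.3 and numpy 2.4.6, and the calculation was tested on simulated data. Alternatives were equal fraction totals, the ERCC scale, log2 signal weights, other filters, pseudocounts and centrings, and leaving out single fractions. Sequences come from the RefSeq start table. The members and gene lists were chosen with earlier results of these data known. Named were each complex's most abundant member, its extremes of position and shift, members past a size rule, paralogs, all complex II members and the extremes of other lists; any other gene was chosen after its values were seen. Library preparation was stranded, per the labels' protocols.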

Additional observations from a re-analysis of the deposited data

How the results depend on the processing

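Equal fraction totals moved the median shift of the members to -0.90 without serum (17 lower, 1 higher) and -0.72 without amino acids (16 lower, 1 higher), and the level ratio without serum to 0.20. The spike-in scale gave 2 higher without amino acids and a level ratio of 0.19 without serum. Weights of log2 signal gave medians of 0.058 and 0.16, left 0 of the 6 and 0 of the 5 lower members past the rule, put the log phase position of the members at -0.99 against all genes, and turned UQCRB (0.092 and 0.17) and UQCRH (0.038, without serum) above 0; on that scale 0.496% and 0.652% of all genes were lower. Without centring the median shifts were -1.54, -1.84 and -0.47, with 33, 38 and 1 members lower. Of all genes 69.2%, 86.4% and 7.75% were lower in that setting, so these counts carry the common movement. The level ratios without centring were -0.13, -0.19 and -0.080. A pseudocount of 5 gave level ratios of 0.22 and 0.27, and no filter 0.20 and 0.27. Centring within 10 bins of starting position, chosen after seeing the data, gave -0.0080 without serum, with UQCRH at -0.88. It put 1 member higher without amino acids, where 5.58% of all genes were. In fractions 16 to 22 the median member held 75.3% of its log phase signal, against 40.2% in fractions 18 to 22. Leaving out single fractions gave median shifts from -0.25 to -0.05 and from -0.13 to 0.01. It gave 3 to 8 and 5 to 6 lower members (8.42% to 11% and 7.85% to 10.9% of all genes). Without amino acids 0 to 1 were higher (5.35% to 8.49% of all genes). Level ratios ran from 0.26 to 0.36 and from 0.39 to 0.54. The cause of these differences was not tested. ATP5A1, UQCRC2, COX4I1 and ATP5G2 kept their direction under every alternative run, and stayed past the rule under all but the log2 weights and the single fractions named above. Positions against protein length were not run, because protein sequences were not used here.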
